A study of Homo sapiens with 12 samples.

Results

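The aryl hydrocarbon receptor gene AHR and 8 genes of the battery it is best known for were followed: the feedback repressors AHRR and TIPARP, the cytochromes CYP1A1, CYP1A2 and CYP1B1, and the enzymes NQO1, ALDH3A1 and UGT1A6. They were found in the deposited tables by the Ensembl identifier that carries each symbol, and all 9 had a row among the 37247 genes listed for each cell line. Their response to the drug was already known from these same libraries when the set was drawn up, and the genes were in effect selected on the fold changes of treated against parent cells. Those values are therefore given for the 9 genes as a description, without p-values.

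Bulk RNA-seq covered 4 groups of 3 libraries. LC-2/ad cells, a lung cancer line, were exposed to 100 nM selpercatinib for 48 h, and LC-2/ad parent cells had no treatment. TPC-1 cells, from a papillary thyroid cancer, were likewise exposed to 100 nM selpercatinib for 48 h, and TPC-1 parent cells had no treatment. Selpercatinib is a kinase inhibitor selective for RET, and the series describes both lines as carrying an altered RET. All cells grew with serum, LC-2/ad in equal parts RPMI-1640 and F-12 medium, TPC-1 in RPMI-1640 alone. Whether parent cells received the drug's solvent, and whether replicate libraries stem from different cultures, is not stated, so the spread between libraries may be technical. Each tissue was represented by a single line. In bulk RNA, fewer cells carrying a transcript and less of it per cell cannot be told apart.

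AHR is a transcription factor of the bHLH-PAS family that waits in the cytosol in a complex with HSP90 and the co-chaperone p23. When it binds a flat aromatic ligand, such as a dioxin, a combustion product or a tryptophan derivative, it moves to the nucleus, pairs with ARNT and binds DNA elements with the core GCGTG. In lung epithelium the CYP1 genes are the classical readout of this pathway, since their enzymes oxidise polycyclic aromatic hydrocarbons of smoke. AHRR and TIPARP are themselves induced by the receptor and restrain it.

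Promoter sequence was available from RefSeq (GRCh38.p14) for 7 of the 9 genes, with CYP1B1 and ALDH3A1 not among them. In the 250 bases upstream of the start sites, searched on both strands, GCGTG was found for CYP1A1, AHRR, TIPARP and UGT1A6 and was not found for AHR, CYP1A2 and NQO1. For scale, GCGTG occurred in 32.2% of all 35116 promoters of that length, its longer form TNGCGTG, which contains it, in 4.52%, and TGACNNNGC, the core of the antioxidant response element, in 10.9%. TNGCGTG was present upstream of the first AHRR start and of the first UGT1A6 start, and TGACNNNGC upstream of the second UGT1A6 start. A match describes letters only, and the well-studied enhancer of CYP1A1 lies farther upstream than these windows. Shown here are the first AHRR promoter, which holds the longer form, and the promoters of the neighbouring genes CYP1A1 and CYP1A2, whose transcripts stood furthest apart between treated and parent LC-2/ad cells. Capitals mark GCGTG, the sequences read 5′ to 3′ in the direction of the gene, and stretches that GENCODE 29 counts as exon are left out.
AHRR, chr5:321464-321713, plus strand: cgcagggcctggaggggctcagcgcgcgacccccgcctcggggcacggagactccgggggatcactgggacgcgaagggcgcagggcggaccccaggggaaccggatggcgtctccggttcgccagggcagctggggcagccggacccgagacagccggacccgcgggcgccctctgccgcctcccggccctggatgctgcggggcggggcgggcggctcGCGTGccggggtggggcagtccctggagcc
CYP1A1, chr15:74725611-74725778, minus strand: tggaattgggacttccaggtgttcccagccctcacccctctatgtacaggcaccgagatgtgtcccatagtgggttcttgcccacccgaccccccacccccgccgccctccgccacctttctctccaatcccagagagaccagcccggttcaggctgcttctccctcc
CYP1A2, chr15:74748595-74748843, plus strand: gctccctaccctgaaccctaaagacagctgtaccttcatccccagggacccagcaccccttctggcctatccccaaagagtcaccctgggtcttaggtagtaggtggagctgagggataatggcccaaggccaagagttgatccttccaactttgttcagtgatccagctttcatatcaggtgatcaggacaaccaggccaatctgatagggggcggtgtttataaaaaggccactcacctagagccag
The AHRR core begins 30 bases before the start site. The single CYP1A1 core begins 57 bases before the start, in the stretch left out, so none stands in the letters shown. The CYP1A2 stretch holds neither core.

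In LC-2/ad cells the 3 CYP1 transcripts, UGT1A6, AHRR and AHR itself were higher with selpercatinib than in parent cells, while NQO1 and ALDH3A1 were lower and TIPARP differed little. The change was widest for CYP1A1, which was 10.7-fold higher. In TPC-1 cells none of the CYP1 genes separated the treated from the parent libraries, and CYP1A1 was under 1 TPM throughout. UGT1A6 was higher and NQO1 lower in the treated cells of both lines. Values are transcript abundances (TPM), a unit already divided by transcript length, and a log2 fold change is selpercatinib minus parent on the log2(TPM + 1) scale, with limma's standard error.

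**Figure D1:**
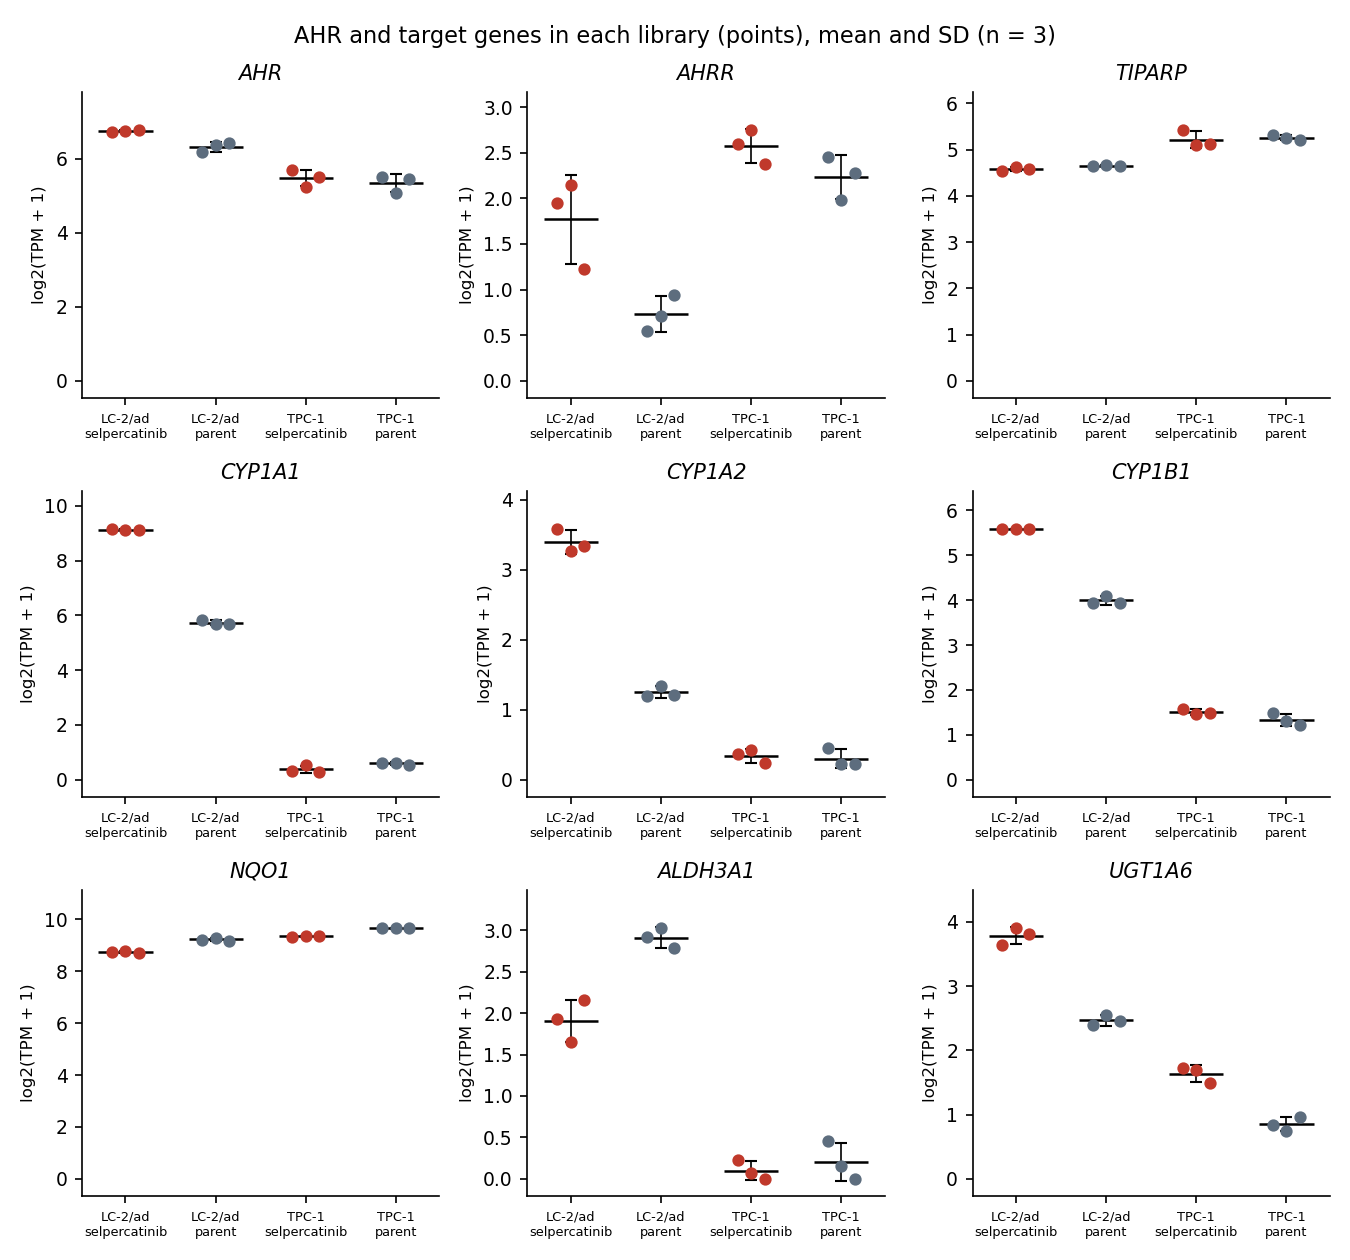
Level of each gene as log2(TPM + 1) in every library (points), with the group mean (line) and SD (bar), 3 libraries a group; each panel has its own scale. In LC-2/ad cells the treated libraries of CYP1A1 (552 to 575 TPM) stand far above the parent ones (50.4 to 55.9 TPM), and in TPC-1 cells all 6 libraries lie near 0.

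The receptor gene AHR (chromosome 7, 16916359-17346152, plus strand, GRCh38) had 104, 105 and 109 TPM in treated LC-2/ad cells, against 71.0, 81.3 and 85.0 TPM in parent cells. Every treated library lay above every parent library, and the log2 fold change was 0.43 ± 0.07 (SE, n = 3 each). TPC-1 cells had 50.4, 36.6 and 44.7 TPM after treatment and 44.7, 32.4 and 42.3 TPM in parent cells. There the groups overlapped, and the log2 fold change was 0.14 ± 0.14. It ran from 0.0021 without parent library 2 to 0.26 without treated library 2.

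Of the repressors, AHRR competes with AHR for ARNT. It was the least abundant of the 9 genes in LC-2/ad cells, at 2.87, 3.42 and 1.33 TPM with selpercatinib, against 0.458, 0.638 and 0.911 TPM in parent cells. The groups did not overlap, but the third treated library lay far below the other two, and the log2 fold change was 1.04 ± 0.26. In TPC-1 cells AHRR had 5.03, 5.74 and 4.18 TPM after treatment and 4.46, 2.94 and 3.83 TPM in parent cells, with overlapping groups and a log2 fold change of 0.34 ± 0.17. AHRR shares its locus on chromosome 5 with PDCD6, on the same strand and far more abundant (288 TPM in treated and 257 TPM in parent LC-2/ad cells), so the split of reads between them is uncertain. PDCD6 itself rose by 0.16 ± 0.04 (limma adjusted p = 0.0103).

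TIPARP, a mono-ADP-ribosyltransferase that modifies AHR, moved least. Its levels were 22.4, 23.6 and 22.9 TPM in treated LC-2/ad cells and 23.9, 24.5 and 24.1 TPM in parent cells. The treated libraries lay just below the parent ones, with a log2 fold change of -0.07 ± 0.05. With mitochondrial transcripts removed the value was 0.0017, and with another scaling between libraries (median of ratios) it was -0.17. In TPC-1 cells TIPARP averaged 36.5 ± 4.96 TPM after treatment and 37.4 ± 1.51 TPM in parent cells (SD, n = 3 each), and the groups overlapped.

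The cytochromes carried the widest differences. CYP1A1, the enzyme most often used as a reporter of AHR activity, had 575, 552 and 557 TPM in treated LC-2/ad cells, against 55.9, 50.4 and 50.8 TPM in parent cells. The groups were far apart relative to their spread (561 ± 11.9 TPM against 52.4 ± 3.03 TPM, SD), with a log2 fold change of 3.40 ± 0.05. CYP1A2, its close relative that is best known from liver, had 11.0, 8.61 and 9.18 TPM after treatment and 1.29, 1.54 and 1.33 TPM in parent cells, a log2 fold change of 2.15 ± 0.13. CYP1B1, which also hydroxylates estradiol, had 47.1, 47.2 and 47.0 TPM after treatment and 14.4, 16.1 and 14.3 TPM in parent cells, a log2 fold change of 1.59 ± 0.06. All treated libraries lay above all parent libraries for each of these genes. CYP1B1 on chromosome 2 overlaps RMDN2 on the opposite strand, which also rose, to 5.51 TPM in treated against 2.97 TPM in parent cells (log2 fold change 0.71 ± 0.12, limma adjusted p = 0.00156). Whether strand was used in quantification is not given in the sources used here, so reads of this pair could not be told apart with certainty, although CYP1B1 was the more abundant.

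In TPC-1 cells CYP1A1 was listed at 0.263, 0.448 and 0.216 TPM with selpercatinib and at 0.545, 0.547 and 0.439 TPM in parent cells. Levels overlapped slightly and stayed under the 1 TPM limit for fitting, as did those of CYP1A2, which averaged 0.270 TPM in treated and 0.236 TPM in parent cells. CYP1B1 had 1.99, 1.76 and 1.80 TPM after treatment and 1.79, 1.48 and 1.32 TPM in parent cells, overlapping groups with a log2 fold change of 0.18 ± 0.17.

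**Figure D2:**
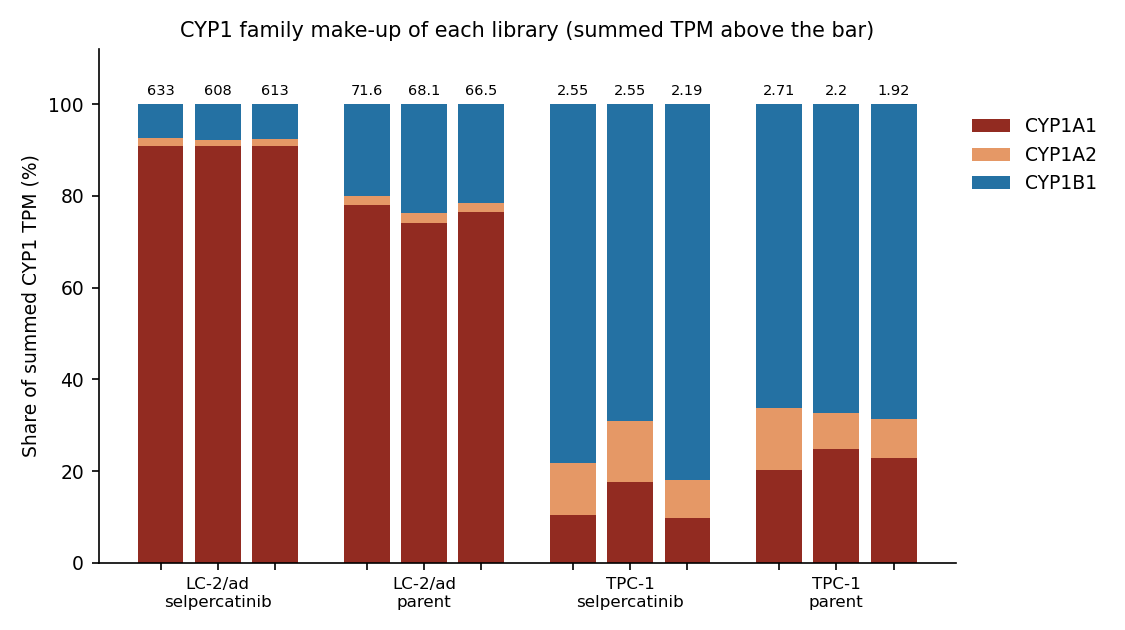
Percentage of the summed CYP1A1, CYP1A2 and CYP1B1 TPM held by each gene in every library (a bar each), with the sum in TPM above the bar. In LC-2/ad cells the sum was 608 to 633 TPM with selpercatinib and 66.5 to 71.6 TPM in parent cells, and in TPC-1 cells it was at most 2.71 TPM in any library.

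The make-up of the CYP1 family differed with the drug as well as its amount. CYP1A1 made up 90.8% of the summed CYP1 TPM in every treated LC-2/ad library, against 74.0% to 78.1% in parent libraries. Its ratio to CYP1A2 was 52.1 to 64.1 with selpercatinib and 32.8 to 43.2 in parent cells, and its ratio to CYP1B1 was 11.7 to 12.2 with selpercatinib and 3.12 to 3.88 in parent cells. In TPC-1 cells CYP1B1 was the leading member instead, and CYP1A1 accounted for 9.87% to 17.5% of the CYP1 sum after treatment and 20.1% to 24.9% in parent cells. These TPC-1 shares rest on very low levels.

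CYP1A1 and CYP1A2 lie head to head on chromosome 15, with 23234 bp between their start sites. Within 100000 bp of the pair, 5 other protein-coding genes were abundant enough to fit in LC-2/ad cells. EDC3, an mRNA decapping factor, rose by 0.55 ± 0.08 to 43.6 TPM in treated against 29.5 TPM in parent cells (limma adjusted p = 0.000839). SCAMP2, a vesicle membrane protein, rose by 0.24 ± 0.05 (adjusted p = 0.00557). CSK, CLK3 and ULK3 did not pass the limma threshold, with log2 fold changes of -0.20 ± 0.08, -0.06 ± 0.13 and -0.01 ± 0.12. None of the 5 came near the values of CYP1A1 or CYP1A2.

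The remaining enzymes went in different directions. NQO1, a quinone reductase that also answers to the oxidative stress factor NRF2, had 431, 434 and 417 TPM in treated LC-2/ad cells, against 596, 624 and 577 TPM in parent cells. In TPC-1 cells it had 644, 649 and 658 TPM after treatment and 805, 821 and 803 TPM in parent cells. Treated libraries lay below parent libraries in both lines, with log2 fold changes of -0.49 ± 0.04 (LC-2/ad) and -0.32 ± 0.04 (TPC-1). ALDH3A1, an aldehyde dehydrogenase, had 2.80, 2.14 and 3.45 TPM in treated LC-2/ad cells, against 6.58, 7.18 and 5.87 TPM in parent cells, again without overlap, and a log2 fold change of -1.0 ± 0.15. In TPC-1 cells ALDH3A1 was under 0.4 TPM in all libraries and listed at 0 in the third library of each group.

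UGT1A6, which glucuronidates small phenols, had 11.5, 14.0 and 13.0 TPM in treated LC-2/ad cells and 4.23, 4.86 and 4.50 TPM in parent cells, a log2 fold change of 1.32 ± 0.10. TPC-1 cells had 2.32, 2.23 and 1.82 TPM after treatment and 0.783, 0.682 and 0.945 TPM in parent cells, a log2 fold change of 0.79 ± 0.18. The libraries of treated and parent cells did not overlap in either line. The UGT1A genes share their downstream exons, and UGT1A6 took 86.4% to 90.4% of the summed TPM of 13 UGT1A identifiers in treated LC-2/ad cells and 80.9% to 93.4% in parent cells. In TPC-1 cells that share was 80.0% to 89.1% after treatment and 76.1% to 78.9% in parent cells. Assignment of reads among these identifiers is uncertain.

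**Figure D3:**
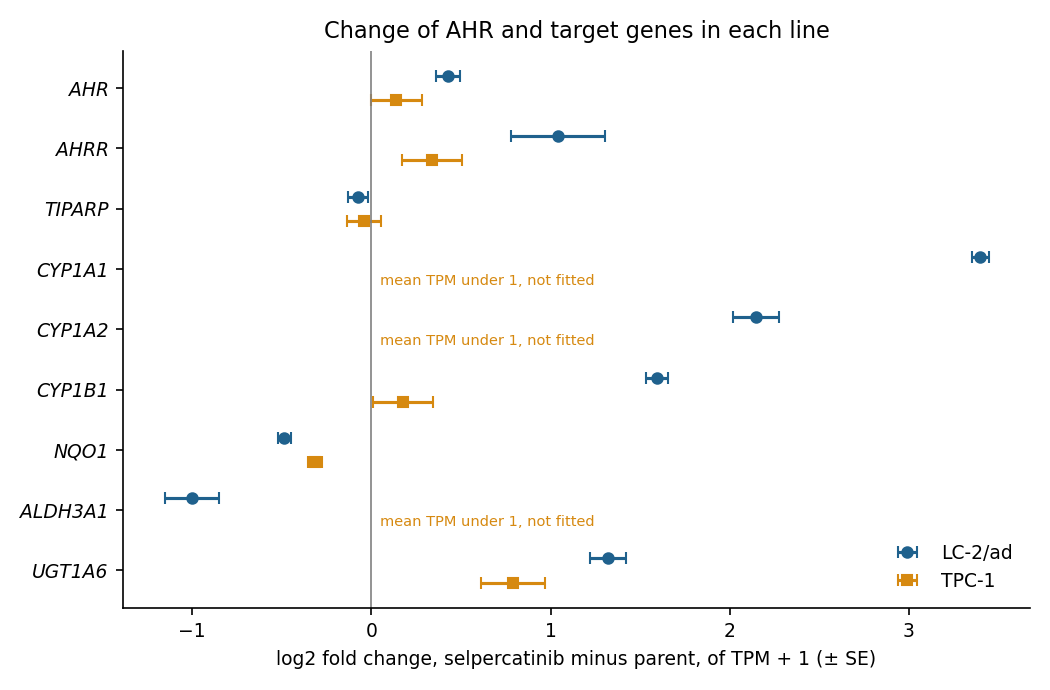
Log2 fold change (selpercatinib minus parent on log2(TPM + 1), limma, bars are SE) of the 9 genes in LC-2/ad (circles) and of the 6 that could be fitted in TPC-1 cells (squares). CYP1A1 stands furthest out at 3.40 in LC-2/ad cells, and NQO1 lies below 0 in both lines.

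Across the set, 6 genes were higher and 2 lower past the limma threshold (adjusted p under 0.05) in LC-2/ad cells, where 55% of all 14118 genes tested passed it, 30.6% higher and 24.4% lower. All 9 had treated and parent libraries that did not overlap, against 62.8% of all genes, 35.3% above and 27.6% below. In TPC-1 cells 6 of the 9 could be fitted, and UGT1A6 (higher) and NQO1 (lower) passed, where 4.96% of 12825 genes did, 3.75% higher and 1.21% lower. The UGT1A6 call ended whenever any 1 library was left out, with a pseudocount of 0.1, without a filter and with the replicate block. AHRR in LC-2/ad cells and UGT1A6 in TPC-1 cells averaged under 1 TPM in parent cells and so entered the fit through the treated libraries. In TPC-1 cells UGT1A6 and NQO1 were also the only members without overlap, against 25.8% of all genes, 16.6% above and 9.23% below. Since the set was chosen with this contrast in view, nothing is read from these counts. Members had a median log2 fold change of 1.04 in LC-2/ad cells, against 0.066 over all genes, and of 0.16 for the 6 fitted in TPC-1 cells, against 0.048. The 5th to 95th percentile of all genes ran from -0.82 to 0.997 in LC-2/ad cells on this scale. CYP1A1, CYP1A2, CYP1B1, UGT1A6 and AHRR lay above that range, and ALDH3A1 lay below it.

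The response was set side by side between the lines as the log2 fold change in LC-2/ad minus that in TPC-1. It was 1.42 ± 0.14 for CYP1B1, 0.70 ± 0.32 for AHRR, 0.53 ± 0.18 for UGT1A6 and 0.29 ± 0.18 for AHR. For TIPARP it was -0.03 ± 0.11, and for NQO1 it was -0.17 ± 0.05. CYP1A1, CYP1A2 and ALDH3A1 were too low in TPC-1 cells to be fitted. Of 11996 genes tested for this difference, 36.6% passed the threshold, with 1733 (14.4%) higher and 2660 (22.2%) lower in LC-2/ad cells, against 2302 higher and 2066 lower once mitochondrial transcripts were removed.

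Levels within a library put these values in order. In treated LC-2/ad cells CYP1A1 led at 561 TPM, the 99.1 percentile of genes above 0, followed by NQO1, AHR, CYP1B1, TIPARP, UGT1A6, CYP1A2, ALDH3A1 and AHRR. Neighbours in this order differed beyond their spread except ALDH3A1 and AHRR, whose ranges overlapped, and the ranges of UGT1A6 (11.5 to 14.0 TPM) and CYP1A2 (8.61 to 11.0 TPM) lay close together. In parent LC-2/ad cells NQO1 led at 599 TPM and CYP1A1 was the third, at 52.4 TPM, behind AHR. In TPC-1 cells NQO1, AHR, TIPARP and AHRR were the leading 4 in both groups, and AHR and TIPARP overlapped. AHR thus stood at 84.2 and 83.2 percentiles of genes above 0 in treated and parent TPC-1 cells, where CYP1A1 stood at 27.3 and 31.3. The 2 tables were made separately, so levels between lines were not tested.

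Genes with the most similar pattern were sought among 11600 others with a symbol and a mean of 1 TPM or more in each line. Similarity was the smallest root mean square distance in log2(TPM + 1), after subtraction of each line's parent mean, over the 12 libraries. For CYP1A1 the nearest were CLIC3 (distance 0.542), TUBA1A (0.548) and TP53INP2 (0.651), whose log2 fold changes in LC-2/ad cells, 2.46, 2.37 and 2.15, were all smaller than that of CYP1A1. For CYP1B1 they were SLC29A3 (0.087), PLAAT4 (0.092) and SYNPO (0.099). For AHR they were FMR1 (0.069), SLC35A3 (0.076) and RALGAPB (0.081). The distances were far wider for CYP1A1 than for CYP1B1 and AHR. CYP1A1 itself was under that limit in TPC-1 cells, so genes as low there as CYP1A1 were not among the candidates.

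Library composition was compared alongside. All libraries summed to 1000000 TPM. In LC-2/ad cells 14266 to 14336 genes reached 1 TPM in treated and 13713 to 13749 in parent libraries. In TPC-1 cells it was 12804 to 12967 in treated and 12554 to 12876 in parent libraries. Mitochondrially encoded transcripts took 14.01% to 14.95% of the TPM in treated LC-2/ad cells and 9.72% to 9.83% in parent cells, and 5.83% to 6.82% in treated TPC-1 cells and 6.41% to 7.56% in parent cells. With them removed, the LC-2/ad log2 fold changes were 3.48 for CYP1A1, 1.68 for CYP1B1, 0.50 for AHR and -0.41 for NQO1, so these differences were about as large without them. LC-2/ad cells carried the lung lineage factor NKX2-1, which rose to 140.4 TPM in treated against 109.8 TPM in parent cells (limma adjusted p = 0.000203), and NAPSA, but held the surfactant genes SFTPB, SFTPA1 and SFTPC under 1 TPM. TPC-1 cells carried the thyroid factors PAX8 (271 TPM in treated and 189.96 TPM in parent cells) and FOXE1 (9.27 and 9.11 TPM) but held SLC5A5 and TSHR under 1 TPM. Both thyroid factors were also present in LC-2/ad cells and rose there, FOXE1 to 36.2 against 11.6 TPM (adjusted p = 1.52e-06) and PAX8 to 21.9 against 14.8 TPM (adjusted p = 0.00247). The 4 epithelial markers were EPCAM, CDH1, KRT8 and KRT18. They summed to 2493 to 2557 TPM in treated and 3686 to 3835 TPM in parent LC-2/ad cells. Most of that sum was KRT8 and KRT18, and CDH1 did not fall (190 TPM in treated and 169 TPM in parent cells). In TPC-1 cells the 4 markers summed to 2445 to 2470 TPM in treated and 2826 to 3146 TPM in parent cells. Nearly all of that was KRT8 and KRT18. EPCAM averaged 4.22 TPM in treated and 4.33 TPM in parent TPC-1 cells, and CDH1 0.820 and 0.434 TPM. KRT7 rose in both lines, to 3376 against 2441 TPM in LC-2/ad and to 2657 against 2034 TPM in TPC-1 cells. The part of these shifts in the results was not tested. The 8 markers of blood, endothelial and fibroblast cells summed to 36.4 to 42.2 TPM in treated and 31.0 to 35.9 TPM in parent LC-2/ad cells, most of it COL1A1, and to 25.0 to 31.4 TPM in treated and 27.3 to 31.3 TPM in parent TPC-1 cells. LUM, a fibroblast proteoglycan, had 2.12 TPM in treated against 0.495 TPM in parent LC-2/ad cells. It reached the limit for fitting through the treated libraries alone. The 6 others of that list, PTPRC, CD3E, CD14, PECAM1, VWF and COL3A1, were at most 1.09 TPM in all libraries, and the part of such cells in the results was not tested.

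Other genes of the pathway were read from 6 lists, with limma adjusted p-values over all genes. In TPC-1 cells the median log2 fold changes of the 6 lists ran from -0.070 for the AHR complex to 0.112 for the bHLH-PAS factors, against 0.048 over all genes. Of 10 genes of the AHR complex and its coactivators, 3 rose, 3 fell and 4 did not pass in LC-2/ad cells, with a median log2 fold change of 0.20 against 0.066 over all genes. As 55% of all genes passed in LC-2/ad cells, 30.6% higher and 24.4% lower, the counts of these lists are to be read against those shares, and in TPC-1 cells against 4.96%. ARNT2, a partner related to ARNT, rose to 6.09 ± 0.90 TPM in treated against 1.42 ± 0.10 TPM in parent cells (SD, log2 fold change 1.54 ± 0.14 SE, adjusted p = 4.98e-05). CREBBP, a histone acetyltransferase, rose by 0.64 ± 0.09. The chaperone HSP90AA1 fell to 909 TPM in treated against 1447 TPM in parent cells, and PTGES3, which encodes p23, fell to 234 against 366 TPM. ARNT itself did not pass, at 0.24 (adjusted p = 0.0561). In TPC-1 cells PTGES3 fell, to 326 TPM in treated against 386 TPM in parent cells (log2 fold change -0.25 ± 0.05, adjusted p = 0.031), and the other 9 did not pass. That call ended in 7 of 14 alternatives, with adjusted p up to 0.142, among them leaving out parent library 2 or 3 or treated library 2 or 3.

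Of the related bHLH-PAS factors, 8 of 9 could be fitted in LC-2/ad cells, and 4 fell while 0 rose by limma. Their median log2 fold change was -0.36. Without adjustment (limma p under 0.05) 5 were lower and 0 higher. The share of all genes at that unadjusted limit was not computed, so nothing is read from unadjusted counts in this or other lists. The hypoxia factor HIF1A fell to 180 TPM in treated against 240 TPM in parent cells (adjusted p = 5.93e-05), and the circadian factor CLOCK to 17.3 against 25.0 TPM (adjusted p = 0.00469). EPAS1, at -0.32 ± 0.10, and NPAS2, at -0.49 ± 0.15, passed with adjusted p of 0.0245 and 0.027. Each of those calls ended in 5 of 14 alternatives, EPAS1 without parent or treated library 3 and NPAS2 without parent library 2 or 3 or treated library 1 or 3, with adjusted p up to 0.075 and 0.0901. In TPC-1 cells 0 of 6 passed by limma, and 2 were higher and 0 lower at an unadjusted p under 0.05.

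Among other enzymes of xenobiotic oxidation and conjugation, 12 of 19 could be fitted in LC-2/ad cells, 7 rose and 3 fell, with a median log2 fold change of 0.41. Of the falls, that of POR ended in 6 of 14 alternatives (adjusted p up to 0.233), among them leaving out parent library 2 or 3 or treated library 3, and that of EPHX1 in 1. ALDH3B1, an aldehyde dehydrogenase, rose to 91.7, 87.6 and 86.6 TPM in treated against 23.5, 22.5 and 19.8 TPM in parent cells (1.97 ± 0.07, adjusted p = 6.98e-07). CYP2S1, a cytochrome that dioxin also induces, rose to 94.4 against 34.0 TPM (1.45 ± 0.07, adjusted p = 3.23e-06). Of the glutathione transferases, GSTA1 rose to 4.19 against 0.318 TPM (1.98 ± 0.15) and GSTA4 to 18.4 against 7.71 TPM (1.17 ± 0.14). GSTA1 reached the limit for fitting through the treated libraries alone. In TPC-1 cells 9 could be fitted, and CYB5A and GSTP1 rose, GSTP1 to 2726 TPM in treated against 2027 TPM in parent cells (0.43 ± 0.04, adjusted p = 0.000856). CYB5A, cytochrome b5, rose to 91.5 against 66.5 TPM (0.45 ± 0.08, adjusted p = 0.0107), a call that ended without treated library 1 and in 2 other alternatives, with adjusted p up to 0.0596. Both also rose in LC-2/ad cells, GSTP1 by 0.30 ± 0.02 and CYB5A by 0.51 ± 0.05.

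Of 12 genes described elsewhere as AHR-inducible, 10 could be fitted in LC-2/ad cells, of which 1 rose and 4 fell, with a median log2 fold change of -0.29. The fall of SERPINB2 ended without parent library 2 or treated library 2 or 3, with adjusted p up to 0.0686. NEDD9, a scaffold protein of focal adhesions, rose to 102, 99.8 and 97.4 TPM in treated against 34.5, 34.1 and 33.5 TPM in parent cells (1.52 ± 0.04, adjusted p = 3.08e-07). The EGF receptor ligands fell, EREG to 12.6 against 74.8 TPM (-2.48 ± 0.07, adjusted p = 2.98e-07) and AREG to 23.1 against 124 TPM (-2.38 ± 0.05, adjusted p = 9.88e-08). HES1, a repressor downstream of Notch, fell to 13.3 against 34.6 TPM in LC-2/ad cells (-1.31 ± 0.08, adjusted p = 1.06e-05). In TPC-1 cells HES1 had 0.934 TPM in treated against 3.22 TPM in parent cells (-1.13 ± 0.16). There it averaged under 1 TPM after treatment and entered the fit through the parent libraries. It was not tested in TPC-1 cells under the filter of 5 TPM. In TPC-1 cells 6 could be fitted, and besides HES1 only FLG, which encodes the skin barrier protein filaggrin, passed, rising to 79.4 against 36.2 TPM (1.12 ± 0.10, adjusted p = 0.000661).

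Enzymes of tryptophan and kynurenine metabolism make products that can act as AHR ligands. All 7 could be fitted in LC-2/ad cells, with 1 rise, 1 fall and a median log2 fold change of 0.13. IL4I1, an amino acid oxidase whose products are AHR ligands, rose to 2.67 against 1.25 TPM (0.71 ± 0.18, adjusted p = 0.0122), and AFMID, a formamidase, fell to 66.2 against 84.8 TPM (-0.35 ± 0.04, adjusted p = 0.00032). IDO1 and TDO2, which open the tryptophan ring, did not pass, at -0.16 and 0.36. In TPC-1 cells 3 could be fitted and 0 passed by limma in either direction, nor did any at an unadjusted p under 0.05.

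NQO1 is shared with the NRF2 pathway, and 10 other genes of that pathway were all fitted. Of these, 6 fell, 1 rose and 3 did not pass in LC-2/ad cells, with a median log2 fold change of -0.36. TXNRD1, thioredoxin reductase, fell to 259, 261 and 228 TPM in treated against 405, 408 and 382 TPM in parent cells (-0.68 ± 0.06, adjusted p = 4.07e-05). SRXN1, sulfiredoxin, fell to 27.5 against 39.4 TPM, and GCLC and GCLM, the subunits of the enzyme that begins glutathione synthesis, to 73.6 against 109 TPM and to 22.1 against 35.3 TPM. HMOX1, heme oxygenase, rose to 9.44 against 6.71 TPM in LC-2/ad cells (0.43 ± 0.11, adjusted p = 0.014). In TPC-1 cells HMOX1 fell, to 37.6 against 47.3 TPM (-0.33 ± 0.07, adjusted p = 0.0272), and the other 9 did not pass. The TPC-1 call for HMOX1 ended in 8 of 14 alternatives, with adjusted p up to 0.105, among them leaving out any parent library or treated library 1 or 2.

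**Figure D4:**
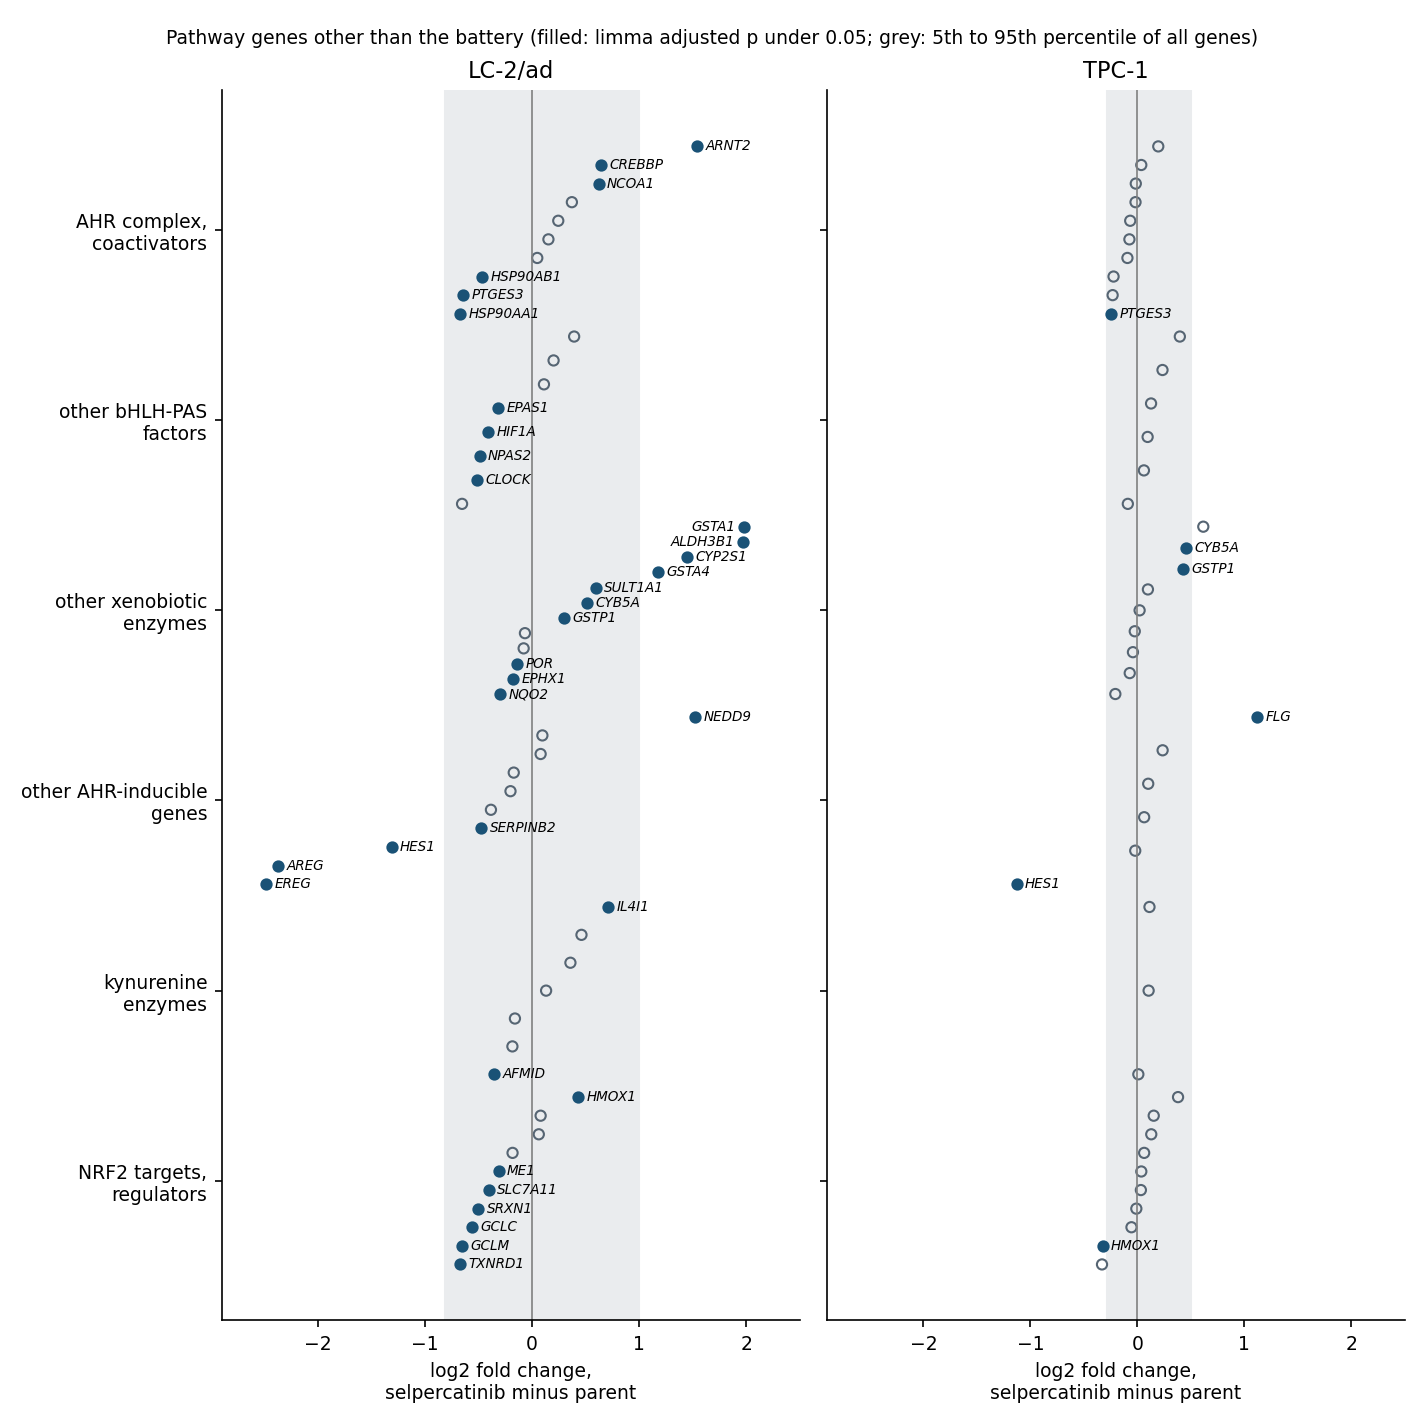
Log2 fold change (selpercatinib minus parent, limma) of each fitted gene of the 6 pathway lists, in LC-2/ad (left) and TPC-1 cells (right), with filled points for adjusted p under 0.05 and the range from the 5th to the 95th percentile of all genes shaded. In LC-2/ad cells EREG (-2.48) and AREG (-2.38) lie furthest left and GSTA1 (1.98) and ALDH3B1 (1.97) furthest right, and in TPC-1 cells HES1 (-1.13) and FLG (1.12) are the outermost.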

How the data were processed

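RNA-seq of 12 libraries was grouped by the sample labels. The deposited values are TPM per gene and library, 1 table a line, which the authors scaled to 1000000 per library. Tools listed in the submitters' processing notes are bcl2fastq 2.20.0 and Salmon, with GRCh38 as the build. The annotation, strand setting and any filter are not given in the sources used here. TPM keeps no read count, so the depth is unknown and precision is judged from the spread between libraries. Of 37247 identifiers, 34620 were in GENCODE 29, whose names and GRCh38 coordinates are used.

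Within a line, treated libraries were set against parent ones by limma 3.58.1 (R 4.3.3, variance trend, two-sided) on log2(TPM + 1). Genes entered at a line mean of 1 TPM or more, and the Benjamini-Hochberg threshold was 0.05 over all genes tested. The difference between lines came from a fit of all 12 libraries, with that limit applied to both lines. The fits were tested on simulated data. Alternatives were pseudocounts of 0.1 and 5, no filter, a filter of 5 TPM, median-of-ratios scaling, removal of mitochondrial transcripts, no variance trend, a replicate block and leaving out each library. Of each pathway list, at most 4 genes past the threshold in a line are named by size of change. GSTP1, CYB5A and HMOX1, named for TPC-1 cells, are also given for LC-2/ad cells. ARNT, IDO1 and TDO2, which did not pass, SERPINB2, POR and EPHX1, whose calls ended, the neighbouring genes and the markers are named for their role or position, chosen after values were seen. Some genes of the lists are not reported here and are not counted. Members and lists were chosen with earlier results of these data known.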

Additional observations from a re-analysis of the deposited data

Results flagged for a closer look

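Of the 26 pathway genes named, 22 could be tested for a difference in drug response between the lines, and 17 passed the limma threshold for it (adjusted p under 0.05 over all genes tested, of which 36.6% passed). They were named for a large change in a line, mostly LC-2/ad, so a high share was built in and the 2 shares are not comparable. Values are the log2 fold change in LC-2/ad cells minus that in TPC-1 cells. Among AHR-inducible genes, the growth factors AREG and EREG had differences of -2.61 ± 0.11 and -2.59 ± 0.14. Among NRF2 targets, TXNRD1 had -0.71 ± 0.10, GCLM -0.65 ± 0.15, SRXN1 -0.54 ± 0.09 and GCLC -0.51 ± 0.11, whereas HMOX1 had 0.76 ± 0.13, having risen in LC-2/ad and fallen in TPC-1 cells. Of the bHLH-PAS factors, HIF1A had -0.65 ± 0.08 and CLOCK -0.64 ± 0.18. In the AHR complex, HSP90AA1 had -0.60 ± 0.07 and PTGES3 -0.40 ± 0.07, while CREBBP had 0.45 ± 0.14 and ARNT2 1.77 ± 0.30. ARNT2 was near the limit for fitting in TPC-1 cells, at 0.908 TPM in treated and 1.26 TPM in parent cells. It entered there through the parent libraries. Of the enzymes, ALDH3B1 had 1.99 ± 0.11, GSTA4 1.38 ± 0.18, AFMID -0.36 ± 0.09 and GSTP1 -0.13 ± 0.05, the last with an adjusted p of 0.0469. The lines also differ in medium and in the tables their values come from.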

How the results depend on the processing

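The number of genes past the threshold was 7770 in LC-2/ad cells (6825 to 8049 over 14 alternatives) and 4393 for the difference between lines (3864 to 4902 over 20). In TPC-1 cells it was 636, with 272 without a filter, 356 without the variance trend and 292 to 815 when 1 library was left out. The cause was not tested. Median-of-ratios scaling turned 4319 higher and 3451 lower genes into 3442 and 4318 in LC-2/ad cells, and 481 and 155 into 420 and 254 in TPC-1 cells. Of the 9 genes, 8 passed in LC-2/ad cells and 6 to 9 over the alternatives, with AHRR and ALDH3A1 not tested under the filter of 5 TPM and TIPARP added under median-of-ratios scaling. In TPC-1 cells 2 passed, and 1 did with a pseudocount of 0.1, without a filter, with a filter of 5 TPM, without the variance trend, with the replicate block and whenever 1 library was left out. UGT1A6 was not tested under the filter of 5 TPM, NQO1 was lost without the variance trend, and UGT1A6 in the others. Of 205 recomputed fold changes of these genes, 183 stayed within 1 SD, 22 moved further and 0 past the threshold changed sign; TIPARP, which did not pass, changed sign in 1 alternative for LC-2/ad cells and in 2 for TPC-1 cells. Low genes depended most on the pseudocount: AHRR ranged from 0.40 to 1.72, CYP1A2 from 1.19 to 2.70 and ALDH3A1 from -1.22 to -0.57 in LC-2/ad cells, and UGT1A6 from 0.29 to 1.30 in TPC-1 cells, against 3.30 to 3.48 for CYP1A1 in LC-2/ad cells. Replicate numbers did not pair the libraries (same-number correlations of deviations -0.048 to 0.054), and the replicate block gave 7357, 542 and 4227 genes for LC-2/ad, TPC-1 and the difference.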
